A study of Mus musculus with 9 samples.

Results

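The 9 genes described here encode subunits of the corepressor complexes that carry class I histone deacetylases to chromatin: Ncor1, Sin3a, Sin3b, Rcor1, Mta1, Mta2, Mta3 and Gatad2a, together with Rest, a DNA-binding repressor that recruits such complexes. They were taken by gene symbol, each symbol matched 1 Ensembl gene, and all 9 of the 56748 genes in the count table were found and passed the filter on low counts that left 17171 genes for testing. The tissue was the whole mouse brain at embryonic day 14, and RNA-seq was run on 9 libraries, 3 for each of 3 treatments. The control libraries came from embryos of the saline group, the poly(I:C) libraries from embryos exposed to synthetic double-stranded RNA, a mimic of viral infection, and the valproic acid libraries from embryos exposed to an anticonvulsant drug that inhibits class I histone deacetylases. The series text calls the unexposed mice wild type, and the labels used here give no strain, dose, day of exposure, litter or sex. Since nothing in them says that the 3 libraries of a group came from separate embryos, each p-value covers no more than the variation among these libraries, whose source, biological or technical, the labels do not give.

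Histone deacetylases 1, 2 and 3 remove acetyl groups from histone tails and are rarely found alone in cells. NuRD joins deacetylases to a nucleosome-remodelling helicase, with the MTA proteins as its deacetylase-binding scaffold and GATAD2A as a bridge to the helicase. SIN3 proteins form a second scaffold, the RCOR proteins pair deacetylases with a histone demethylase in CoREST, and NCoR carries histone deacetylase 3 to unliganded nuclear receptors. REST sits on a DNA element called RE1 and recruits SIN3 through its amino terminus and CoREST through its carboxyl terminus. It keeps neuronal genes silent outside neurons and in neural progenitors, and its level falls as neurons mature.

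Because REST is the member with a well-known DNA element, the RE1 matches near the starts of genes long reported as its targets are shown first. Windows from 250 bases before to 50 bases after each annotated start were taken from RefSeq (GRCm38.p6, an earlier build than the one the submitters name). Both strands were searched for the RE1 parts TTCAGCACC and GGACAG, 2 bases apart, with GCC 1 base after the second, allowing 4 mismatches over these 18 letters. Of 32851 windows of all genes 0.575% held such a match. Among 24 reported REST targets 16 had a window, 24 windows in all, and 4 of these 16 genes held a match. That is a count of genes, while the share above is of windows. Of 29 other subunit genes of the complexes with a window, 1 (Ing1) held a match too. The 4 target matches are shown here on the strand of the gene with the matched stretch in capitals.
Syn1, a synaptic vesicle protein, 17 of 18 letters, chrX:20921110-20921168, minus strand: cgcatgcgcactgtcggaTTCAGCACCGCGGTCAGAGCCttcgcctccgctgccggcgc
Gria2, a glutamate receptor subunit, 16 of 18 letters, chr3:80802969-80803029, minus strand: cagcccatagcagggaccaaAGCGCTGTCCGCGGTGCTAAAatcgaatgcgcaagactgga
Celsr3, an axon guidance cadherin, 15 of 18 letters, chr9:108825898-108825958, plus strand: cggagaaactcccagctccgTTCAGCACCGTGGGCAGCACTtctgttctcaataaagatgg
Unc13a, a vesicle priming protein, 14 of 18 letters, chr8:71671708-71671767, minus strand: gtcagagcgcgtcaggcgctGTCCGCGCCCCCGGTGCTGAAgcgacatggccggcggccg

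The members' own start regions, where a window was given, held no RE1 match. Of the 9 genes 7 had a window, 10 windows in all, and the closest was 7 mismatches away. Rest and Mta3 had no window, so their starts were not searched. A GC box (GGGCGG on either strand) lay in 9 of these 10 windows, against 35.7% of all windows. Most windows of the other subunit genes held a GC box too, so it is not particular to the members. The members' windows were also rich in G and C, with a median of 63.2% beside 52.7% for all windows. The window of Mta2, the member nearest to a call in the comparisons below, and those of Rcor1 and its paralog Rcor2, which differed in their calls, are printed with GC boxes in capitals. A match is a description of these letters and not of binding.
Mta2, chr19:8941670-8941969, plus strand: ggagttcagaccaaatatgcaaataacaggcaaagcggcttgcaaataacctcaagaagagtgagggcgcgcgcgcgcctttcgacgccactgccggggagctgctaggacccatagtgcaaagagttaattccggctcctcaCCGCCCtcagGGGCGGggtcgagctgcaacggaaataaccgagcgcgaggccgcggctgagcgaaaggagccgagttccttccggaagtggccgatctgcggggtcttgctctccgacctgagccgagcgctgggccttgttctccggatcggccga
Rcor1, chr12:111039117-111039416, plus strand: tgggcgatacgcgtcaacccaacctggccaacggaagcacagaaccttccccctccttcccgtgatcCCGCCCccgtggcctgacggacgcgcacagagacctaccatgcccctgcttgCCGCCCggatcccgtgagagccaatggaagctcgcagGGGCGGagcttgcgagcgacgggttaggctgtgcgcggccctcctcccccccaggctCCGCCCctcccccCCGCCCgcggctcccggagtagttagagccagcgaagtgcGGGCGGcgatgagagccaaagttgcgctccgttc
Rcor2, chr19:7267144-7267443, plus strand: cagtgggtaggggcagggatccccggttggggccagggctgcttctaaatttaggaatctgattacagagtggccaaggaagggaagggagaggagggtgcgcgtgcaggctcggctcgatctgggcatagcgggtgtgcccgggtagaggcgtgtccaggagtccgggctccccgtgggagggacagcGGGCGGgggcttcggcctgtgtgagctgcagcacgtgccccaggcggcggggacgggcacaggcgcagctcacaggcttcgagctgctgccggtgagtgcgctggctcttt

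Total counts per library ranged from 15399974 to 19883131. Values below are CPM, a gene's counts per 1000000 counts of the library, with library sizes scaled by TMM, the trimmed mean of M-values. Genes of radial glia (7 genes, 1832 to 2054 CPM summed per library) and neurons (6 genes, 5356 to 5914 CPM) were well expressed, as the tissue label implies. Markers of endothelium (257 to 303 CPM), microglia (52.3 to 72.9 CPM), red cells (447 to 905 CPM) and mural and meningeal cells (433 to 593 CPM) were present in every library. Xist, the RNA of the inactive X chromosome, was at 981 CPM or more in the 3 valproic acid libraries and poly(I:C) replicate 3, and at 0.236 CPM or less in the others. Summed Y-linked genes were at 196 CPM or more in replicates 1 and 2 of the control and poly(I:C) groups, with 0 elsewhere, so control replicate 3 had neither signal and libraries within both of these groups differed in sex-linked RNA. Valproic acid and Xist therefore cannot be told apart in the comparison with control.

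All 9 subunits were transcribed in the embryonic day 14 brain, at levels that spanned an order of magnitude per length. Counts were 470 to 628 for Rest, the lowest member, and 4736 to 5992 for Ncor1, the highest. Divided by total exon length in GENCODE release M21, the control levels were highest for the NuRD scaffold genes Mta1 (53.7 ± 1.31 CPM per kb, mean ± SD, n = 3) and Mta2 (51.1 ± 2.24 CPM per kb), whose libraries overlapped. Ncor1 followed at 22.9 ± 0.721 CPM per kb. Sin3a (18.3 ± 0.772 CPM per kb) and Sin3b (17.3 ± 0.309 CPM per kb) overlapped, so their order is not resolved.

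Below them lay Gatad2a at 13.3 CPM per kb or more, Rcor1 at 11.6 ± 0.187, Mta3 at 7.94 ± 0.192 and Rest at 4.39 ± 0.395 CPM per kb, each apart from its neighbour in every control library. Among the tested genes Mta1 stood at percentile 95.2 of this level and Rest at percentile 47.3. The order of the means was the same in all 3 treatment groups. A per-length level assumes that all annotated exons are used, so it is a guide for genes with several isoforms.

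**Figure D1:**
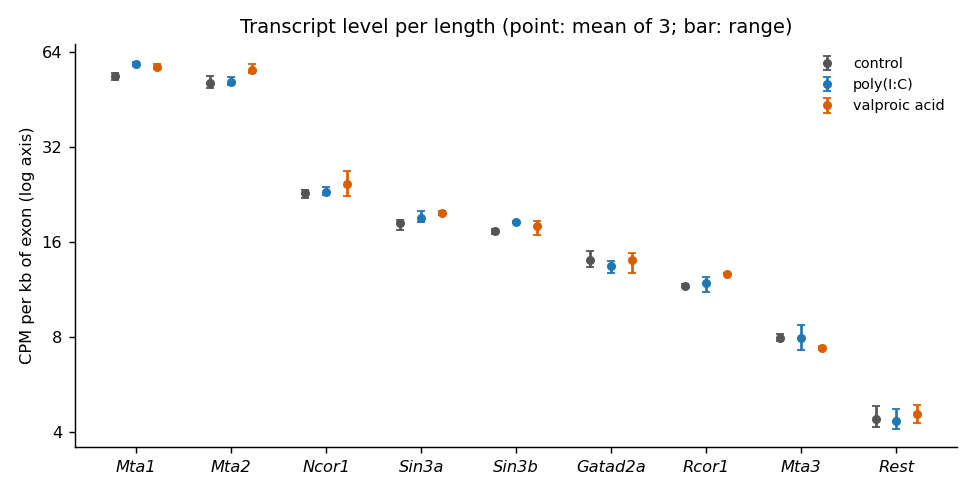
Transcript level of each subunit per kb of annotated exon (log axis) in the 3 groups; points are means of 3 libraries and bars run from the lowest to the highest library. Mta1 and Mta2 are at 49.2 CPM per kb or more in every library and Rest is at 4.87 or less.

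None of the 9 subunit genes was called in any of the 3 comparisons by the quasi-likelihood F-test of edgeR (Benjamini-Hochberg adjustment over all 17171 genes, threshold 0.05). For valproic acid against control, 0 of 9 were called where 6.35% of all genes were (1090 genes, 3.57% higher and 2.78% lower). Unadjusted p was under 0.05 for 4 of the 9 (Sin3a, Rcor1, Mta1 and Mta2) and for 22.1% of all genes, and DESeq2 called 1 of the 9, Mta2. For poly(I:C) against control, 0 of 9 were called where 0.536% of all genes were. Unadjusted p was under 0.05 for 2 of the 9 (Sin3b and Mta1) and for 2064 of all 17171 genes, and DESeq2 called 0. For valproic acid against poly(I:C), 0 of 9 were called where 2.59% of all genes were; 1 of the 9 (Mta2) and 16.6% of all genes had an unadjusted p under 0.05, and DESeq2 called 0.

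The intervals were narrow enough to bound the differences within this fit, which had no covariate. Over the 9 genes, the 95% intervals of the fold ran from no lower than 0.843 (Mta3) to no higher than 1.17 (Rcor1) for valproic acid against control. They ran from 0.874 (Gatad2a) to 1.15 (Mta1) for poly(I:C) against control, and from 0.840 (Mta3) to 1.19 (Rest) for valproic acid against poly(I:C). These are intervals of single genes and cover the spread of these libraries only. Over the other settings, estimates for valproic acid against control reached 0.19 for Sin3a and Mta2 and -0.12 for Mta3. The median log2 difference over the 9 was 0.09 in the valproic acid comparison with control, 0.01 in that of poly(I:C) and 0.06 between the exposures, each beside a median of 0.00 over all genes tested. The comparisons with control share the same 3 control libraries.

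**Figure D2:**
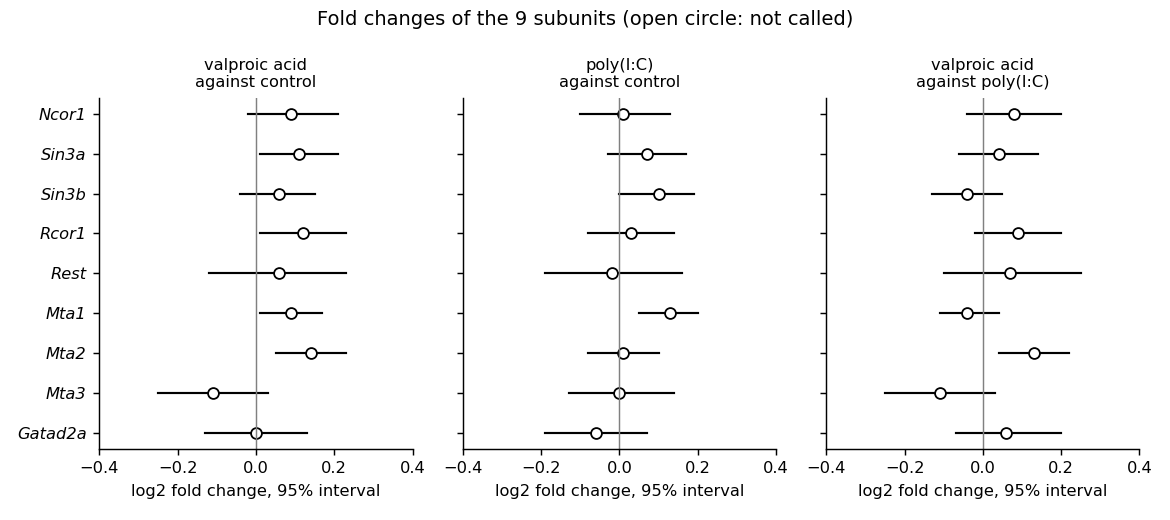
Log2 fold change of each subunit (open circle, not called) with its 95% interval in the 3 comparisons. All circles lie between -0.11 and 0.14.

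Among the NuRD scaffold genes, Mta2 came closest to a call. It was at 201, 207 and 219 CPM in the controls, 218, 209 and 206 CPM under poly(I:C), and 239.5, 227 and 224 CPM under valproic acid. Every valproic acid library lay above every library of both other groups, while control and poly(I:C) overlapped. The control mean was 209 ± 9.16 CPM and the valproic acid mean 230.2 ± 8.27 CPM, a log2 difference of 0.14 (SE 0.0421, 1.10-fold, edgeR adjusted p = 0.0669). Against poly(I:C) the log2 difference was 0.13 (SE 0.0421, edgeR adjusted p = 0.130). DESeq2 gave the same size against control and an adjusted p of 0.0344. With Y-linked expression as a covariate the log2 difference of Mta2 from control was 0.12 (edgeR adjusted p = 0.276), and with Xist 0.19 (edgeR adjusted p = 0.470).

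Mta1, the first described member of the family, had its lower values in the controls. It was at 162, 170.3 and 168 CPM in control, 184, 184 and 179 CPM under poly(I:C), and 181, 175 and 176 CPM under valproic acid. Both exposed groups lay wholly above the controls and overlapped each other. Poly(I:C) differed from control by 0.13 on the log2 scale (SE 0.0354, edgeR adjusted p = 0.146) and valproic acid by 0.09 (SE 0.0355, edgeR adjusted p = 0.144). Between the exposures the difference was -0.04, with a 95% interval of -0.11 to 0.04.

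Mta3, the least abundant MTA gene here, gave values on the other side of 0. It was at 42.0, 41.4 and 43.3 CPM in control, 38.8, 46.5 and 41.8 CPM under poly(I:C), and 39.9, 38.7 and 38.9 CPM under valproic acid. The valproic acid libraries were all below the controls and within the range of poly(I:C) except replicate 2, which lay just under it. The log2 difference from control was -0.11 (SE 0.0648, edgeR adjusted p = 0.353). The per-length ratio of Mta1 to Mta3 within a library was 6.63 to 7.06 in control, 6.79 to 8.11 under poly(I:C) and 7.75 to 7.78 under valproic acid. The ratio, which restates the values of both genes, was higher in each valproic acid library than in each control, and the poly(I:C) libraries overlapped both groups.

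Gatad2a, the link between the deacetylase and helicase modules of NuRD, showed no separation of groups. It ranged from 74.3 to 83.9 CPM in control, 71.4 to 77.6 CPM under poly(I:C) and 71.8 to 82.5 CPM under valproic acid. The log2 differences from control were 0.00 for valproic acid (95% interval -0.13 to 0.13, edgeR adjusted p = 0.996) and -0.06 for poly(I:C) (-0.19 to 0.07, edgeR adjusted p = 0.752).

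The SIN3 scaffolds differed little among groups. Sin3a was at 93.6, 101 and 101 CPM in control, 102, 108 and 99.5 CPM under poly(I:C), and 104, 106 and 108 CPM under valproic acid. The valproic acid libraries lay above the controls and among those of poly(I:C), at a log2 difference from control of 0.11 (SE 0.0467, edgeR adjusted p = 0.190). Sin3b was at 125, 129.7 and 127 CPM in control, 138, 135 and 135 CPM under poly(I:C), and 137, 124 and 136 CPM under valproic acid. Here it was poly(I:C) that lay wholly above control (0.10, SE 0.0436, edgeR adjusted p = 0.391), while valproic acid replicate 2 was the lowest of all 9 libraries. Valproic acid against control gave 0.06 (edgeR adjusted p = 0.492).

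Rcor1, the CoREST scaffold through which REST reaches the demethylase, had tight values under valproic acid. It was at 65.2, 65.8 and 67.3 CPM in control, 70.7, 62.8 and 69.0 CPM under poly(I:C), and 71.6, 72.6 and 71.6 CPM under valproic acid. The valproic acid libraries lay above all 6 others, and poly(I:C) replicate 2 was the lowest library. The log2 difference between valproic acid and control was 0.12 (SE 0.0510, 1.09-fold, edgeR adjusted p = 0.171). Ncor1, which brings histone deacetylase 3 to nuclear receptors, was at 283, 299 and 298 CPM in control, 295, 289 and 306 CPM under poly(I:C), and 286, 344 and 309.9 CPM under valproic acid. Its groups overlapped, with valproic acid replicate 2 highest. Its log2 differences from control were 0.09 for valproic acid (SE 0.0544, edgeR adjusted p = 0.336) and 0.01 for poly(I:C) (edgeR adjusted p = 0.944).

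Rest, the only sequence-specific DNA-binding protein of the 9, was the least abundant per length and the least precise. It was at 35.0, 30.2 and 30.0 CPM in control, 34.1, 29.6 and 30.3 CPM under poly(I:C), and 32.8, 35.1 and 30.8 CPM under valproic acid. All 3 groups overlapped, and each held a library above 34 CPM. Valproic acid against control gave 0.06 on the log2 scale (SE 0.0813, 95% interval -0.12 to 0.23, edgeR adjusted p = 0.741), and poly(I:C) against control -0.02 (SE 0.0811, -0.19 to 0.16, edgeR adjusted p = 0.961). These were the widest intervals among the 9 genes in both comparisons.

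**Figure D3:**
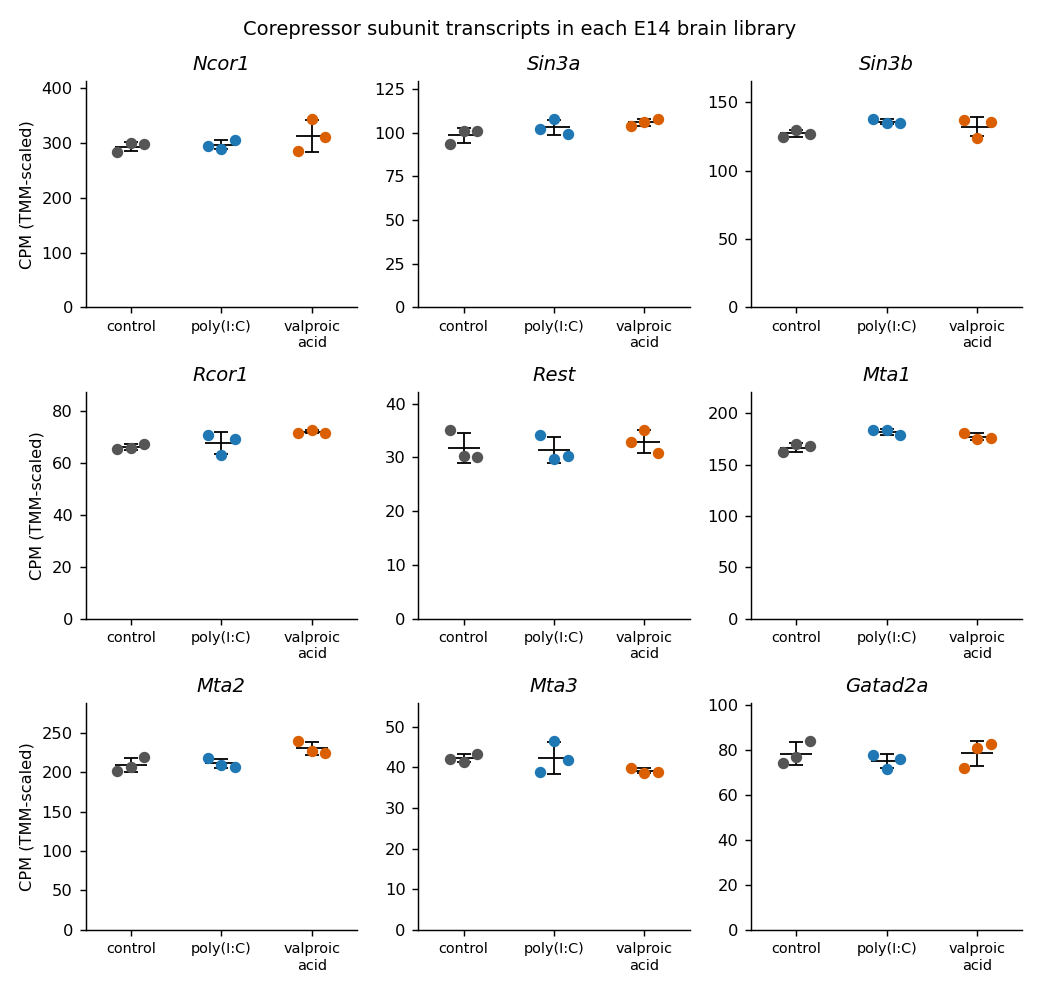
TMM-scaled CPM of the 9 subunits in each library (points; replicates 1 to 3 from left to right), with mean and SD per group (bars); every axis starts at 0. The groups differ by small fractions of the level: the means of control and valproic acid are 209 and 230.2 CPM for Mta2, and 31.7 and 32.9 CPM for Rest.

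Counting groups that did not overlap, 4 of the 9 (Sin3a, Rcor1, Mta1, Mta2) were higher and 1 (Mta3) lower in all valproic acid libraries than in all controls, beside 12.6% and 13.0% of all tested genes. For poly(I:C) against control 2 of 9 (Sin3b, Mta1) were wholly higher, beside 9.60% of all genes. For valproic acid against poly(I:C) 2 of 9 (Rcor1, Mta2) were wholly higher, beside 10.5%. Since the members were chosen with earlier results known and share libraries, these counts are a description only.

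Over the 9 libraries the members did not vary as a block. Pearson correlations of log2 CPM between pairs of members ran from -0.89 (Rcor1 with Mta3) to 0.81 (Sin3b with Mta1), a description over 9 libraries that share treatments and scaling factors. Genes with a pattern much like that of Mta2, out of 15210 named genes averaging 1 CPM or more, were Emx1 (r = 0.982), Med8 (0.964), Aldh16a1 (0.958) and Ddah2 (0.956), over the same 9 libraries. Emx1 encodes a transcription factor of the dorsal forebrain. It was at 42.7 to 47.6 CPM in control, 43.7 to 48.7 CPM under poly(I:C) and 51.1 to 57.8 CPM under valproic acid, so that, like Mta2, it was highest in the valproic acid libraries.

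Other subunits of the members' complexes were read from the same fit. Of 37 other subunits of the same complexes 36 were tested, and under valproic acid 4 rose and 0 fell (11.1% called, beside 6.35% of all genes). The rising genes were Chd4 and Chd3, remodelling helicases of NuRD, Mbd3, a methyl-CpG-binding-domain subunit of NuRD, and Rcor2, the paralog of Rcor1. Not all NuRD partners went this way: 8 of 11 estimates lay above 0 and 3 below. Chd5, a further NuRD helicase, was lower without a call (log2 -0.13, edgeR adjusted p = 0.0963), as was Mbd2 (-0.14, edgeR adjusted p = 0.348). By complex the calls were 3 of 11 NuRD, 0 of 11 Sin3, 1 of 10 CoREST and 0 of 4 NCoR partners. Without control replicate 1 the count of 4 was 2. The median log2 difference of the 36 was 0.05, beside 0.09 for the 9 members. Unadjusted p was under 0.05 for 13 of the 36 (36.1%), beside 44.4% of the members and 22.1% of all genes. Valproic acid lay wholly above control for 12 of the 36 and wholly below for 2, beside 12.6% and 13.0% of all genes. The calls therefore do not show that the partners moved more than the members. Brms1, a SIN3-associated gene, was at 0.233 to 0.826 CPM and was not tested.

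Chd4 rose most, from 558, 579 and 558 CPM in control to 634, 716 and 666 CPM under valproic acid, with poly(I:C) between them at 627, 607 and 619 CPM. None of the 3 groups overlapped. The fold was 1.19 (log2 0.25, SE 0.0411, edgeR adjusted p = 0.00327), and the call held without any of the 9 libraries in turn (largest adjusted p 0.0200). Poly(I:C) against control gave 0.13 for Chd4 (edgeR adjusted p = 0.219). Chd3 rose from 1118 ± 54.1 to 1271 ± 48.8 CPM (edgeR adjusted p = 0.0180) and Mbd3 from 224 ± 12.1 to 252 ± 2.48 CPM (edgeR adjusted p = 0.0220). The call of Chd3 was lost without control replicate 1 or 3 (largest adjusted p 0.0819), and that of Mbd3 without control replicate 1 or valproic acid replicate 1 or 3 (largest adjusted p 0.0968).

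Rcor1 can be set beside its paralog. Rcor2 was at 202, 215 and 208 CPM in control, 217, 207 and 227 CPM under poly(I:C), and 249, 243 and 239 CPM under valproic acid, highest in the valproic acid libraries. It rose 1.17-fold (log2 0.23, SE 0.0415, 95% interval 0.14 to 0.31, edgeR adjusted p = 0.00615), a call that held without any of the 9 libraries in turn. The interval of Rcor1 was 0.01 to 0.23, and the CPM ratio of Rcor2 to Rcor1 was 3.09 to 3.27 in control, 3.08 to 3.29 under poly(I:C) and 3.33 to 3.47 under valproic acid. That ratio was higher in each valproic acid library than in each other library. It restates the values of both genes, of which Rcor2 was called, and is no further evidence. Whether both genes differ in their response was not tested.

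The deacetylases that these scaffolds hold were not called. Hdac1 was at 58.7 ± 0.862 CPM in control, 61.8 ± 2.05 CPM under poly(I:C) and 63.0 ± 0.871 CPM under valproic acid (edgeR adjusted p = 0.211 for valproic acid against control). Hdac2 was at 352 ± 11.9, 367 ± 6.30 and 371 ± 13.6 CPM (adjusted p = 0.271), and Hdac3 at 114 ± 3.76, 116 ± 4.27 and 113 ± 1.21 CPM (adjusted p = 0.930), in the same order and test. The 95% intervals of the log2 difference were 0.00 to 0.20 for Hdac1, -0.01 to 0.16 for Hdac2 and -0.10 to 0.08 for Hdac3. These were about as narrow as those of the scaffolds. Hdac1 was higher in every valproic acid library than in every control, as were 12.6% of all genes.

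**Figure D4:**
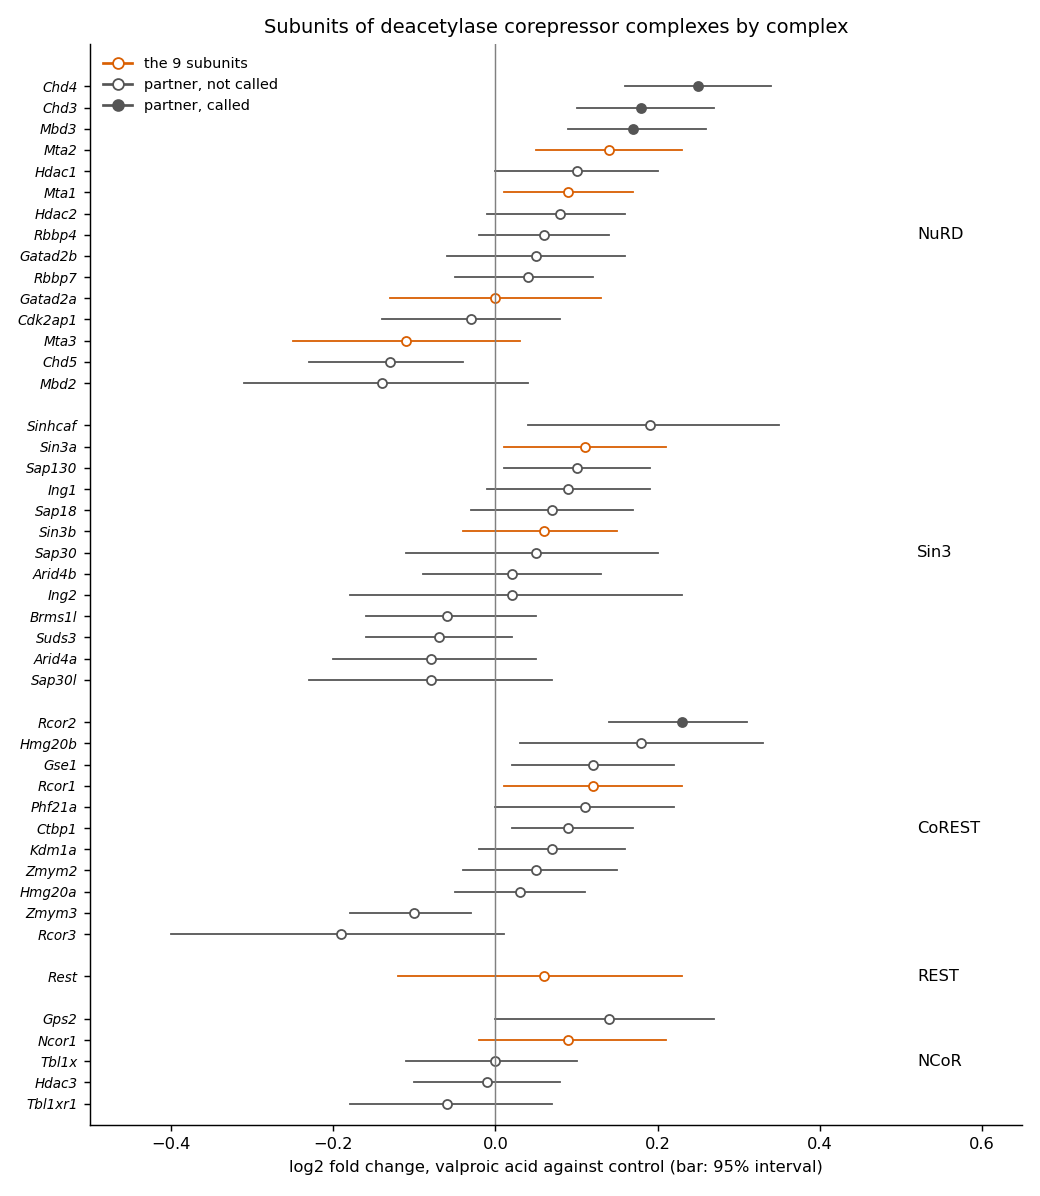
Log2 fold change for valproic acid against control, with 95% intervals, of the 9 subunits (orange) and 36 partner subunits (grey), by complex; filled circles are called. The filled circles are Chd4, Chd3, Mbd3 and Rcor2, all above 0.16.

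Poly(I:C) against control called 0 of 36 partners by edgeR, beside 0.536% of all genes, and 0 by DESeq2. Unadjusted p was under 0.05 for 7 of the 36 (19.4%) and for 2064 of all 17171 genes. The smallest p values belonged to Cdk2ap1, a small NuRD subunit, at 127 ± 4.36 CPM in control and 112 ± 3.79 CPM under poly(I:C) (log2 -0.19, edgeR adjusted p = 0.144), and Chd4, given above. Against poly(I:C), valproic acid called 1 of 36 by edgeR (2.78%, beside 2.59% of all genes) and 3 by DESeq2. The edgeR call was Rcor2, higher by 0.17 (SE 0.0415, edgeR adjusted p = 0.0485). It was kept in 1 of 9 fits that each left out 1 library, the one without control replicate 2, and lost in the other 8 (largest adjusted p 0.215). It was also lost with the replicate number as a block, which left 0 partners called.

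Cell type markers moved in the same libraries as these partners. Under valproic acid, 3 of 3 intermediate progenitor markers and 2 of 7 radial glia markers rose, and 2 of 6 neuron markers fell. Of all genes 3.57% were called higher and 2.78% lower. The estimate was below 0 for 1 radial glia gene (Fabp7, -0.06) and above 0 for 2 neuron genes (Tubb3, 0.01, and Neurod6, 0.03). Of the markers of other cells, 4 of 6 erythroid genes rose and 2 of 5 microglia genes fell. Of 5 endothelial genes 1 (Pecam1) rose, with 3 estimates above 0 and 2 below. Of 5 mural and meningeal genes 1 (Rgs5) fell, while the other 4 estimates lay above 0. The summed level was 456 to 496 CPM against 337 to 359.6 CPM in control for the intermediate progenitor list, 1977 to 2054 against 1832 to 1867 CPM for radial glia, and 5356 to 5707 against 5720.5 to 5826 CPM for neurons. No marker of these lists was at 0 in any library. In whole brain, fewer cells of a type and less RNA per cell cannot be told apart, and the part of cell composition in these results was not tested. With Y-linked expression as a covariate 1 of the 4 partner calls was kept (Chd4, adjusted p = 0.0263), and with Xist as a covariate 0 (Chd4 at 0.25, adjusted p = 0.311). The log2 differences with Y-linked expression and with Xist were 0.18 and 0.09 for Chd3, 0.17 and 0.19 for Mbd3, and 0.19 and 0.13 for Rcor2, beside 0.18, 0.17 and 0.23 without a covariate. Outside the valproic acid group only poly(I:C) replicate 3 had high Xist. The Xist fit separates Xist from the exposure through that library alone, so its lost calls decide nothing about cause.

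Genes reported as REST targets were read because their repression depends on the complexes above. Of 24 such genes, all tested, 4 fell and 0 rose under valproic acid (16.7% called, beside 6.35% of all genes), and 20 of 24 estimates lay below 0, with a median of -0.14. The 4 were Scn2a, a voltage-gated sodium channel, Stmn2, a microtubule regulator of growing axons, Gria2 and Cplx1, a regulator of vesicle fusion. They are neuronal genes, and Stmn2 is also in the neuron marker list, which fell in part as given above. Tubb3, likewise in both lists, was not called (log2 0.01, edgeR adjusted p = 0.949). Earlier results of these data had shown Stmn2 and Gria2 lower, so the list is not independent evidence of their direction.

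Scn2a was at 65.4, 66.2 and 59.2 CPM in control, 55.7, 61.1 and 62.1 CPM under poly(I:C), and 52.3, 55.0 and 52.7 CPM under valproic acid. The valproic acid libraries were the lowest, and poly(I:C) overlapped control. It fell by 0.25 on the log2 scale (SE 0.0590, edgeR adjusted p = 0.0218), lost without control replicate 1 or 2 or valproic acid replicate 1 or 3 (largest adjusted p 0.0845). Gria2, whose RE1 match is printed above, was at 346, 348 and 344 CPM in control, 325, 338 and 327 CPM under poly(I:C), and 322, 267 and 305 CPM under valproic acid. It fell by 0.21 (SE 0.0526, edgeR adjusted p = 0.0272), with valproic acid replicate 2 the lowest library. That call was lost without control replicate 1, 2 or 3 or valproic acid replicate 2 (largest adjusted p 0.0815).

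Stmn2 fell from 711 ± 8.08 to 635 ± 12.6 CPM (edgeR adjusted p = 0.0240), lost without any of the 3 controls or without valproic acid replicate 1 or 3 (largest adjusted p 0.0811). Cplx1 fell from 59.9 ± 4.73 to 50.6 ± 4.02 CPM (edgeR adjusted p = 0.0417). Its call was kept in 2 of 9 fits, those without control replicate 3 or valproic acid replicate 3 (largest adjusted p 0.151 in the others), and was lost when only the 6 libraries compared were fitted. With Y-linked expression or Xist as a covariate 0 of the 24 were called. The log2 differences in these 2 fits were -0.23 and -0.34 for Scn2a, -0.16 and -0.17 for Stmn2, -0.20 in both for Gria2, and -0.19 and -0.22 for Cplx1. Without control replicate 1 or control replicate 2 the count was also 0, and without valproic acid replicate 1 it was 1.

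The other 3 reported targets with an RE1 match gave no call under valproic acid: Syn1 differed by -0.09 (edgeR adjusted p = 0.390), Celsr3 by 0.09 (0.217) and Unc13a by -0.01 (0.912). The targets with a match thus lay on both sides of 0, and Rest itself was at 0.06. For poly(I:C) against control 0 of the 24 were called by edgeR, beside 0.536% of all genes, and 0 by DESeq2, with 4 (16.7%) at an unadjusted p under 0.05, beside 2064 of all 17171 genes. The smallest p values there were those of Tubb3, a neuronal tubulin (log2 0.10, edgeR adjusted p = 0.246), and Stmn2 (-0.10, edgeR adjusted p = 0.295). Valproic acid against poly(I:C) called 0 by edgeR, beside 2.59% of all genes, and 1 by DESeq2, with 10 (41.7%) at an unadjusted p under 0.05, beside 16.6% of all genes. The smallest p values were those of L1cam, an axonal adhesion molecule (-0.14, edgeR adjusted p = 0.0886), and Chrnb2, a nicotinic receptor subunit (-0.15, edgeR adjusted p = 0.0983).

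**Figure D5:**
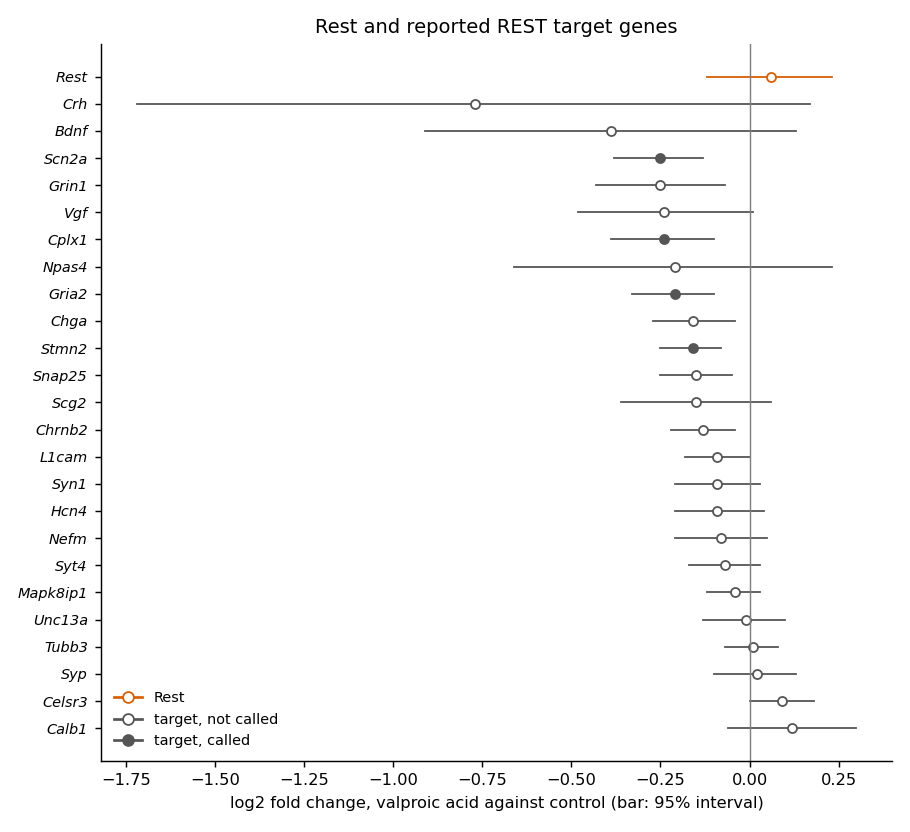
Log2 fold change for valproic acid against control, with 95% intervals, of Rest (orange, 0.06) and 24 reported REST target genes (grey); filled circles are called. The filled circles, Scn2a, Cplx1, Gria2 and Stmn2, lie between -0.25 and -0.16.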

How the data were processed

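Raw counts per Ensembl gene and library, in a table the authors deposited, were used unchanged. HISAT2 and GRCm39 (mm39) are named in the submitters' processing notes; which program counted reads, with which strand setting and gene models, is not given in the sources used here. Reads of overlapping or antisense genes cannot be told apart. Per the labels' protocols, total RNA was depleted of ribosomal RNA before library construction. Symbols (52073 of 56748 genes) and exon lengths came from GENCODE M21, and start windows from RefSeq GRCm38.p6. The members and lists were chosen with earlier results of these data known.

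Low genes were removed with edgeR 4.0.16 (filterByExpr, minimum count 10, minimum total 15). All 9 libraries were fitted with a mean per group and TMM factors by edgeR's quasi-likelihood method (two-sided F-test), adjusted over 17171 genes, and called at 0.05. The SE is the log2 fold change divided by the square root of F, and intervals are 95%. Log2 CPM used a prior count of 2. DESeq2 1.42.0 (R 4.3.3) was an alternative, beside other scaling, filters, a replicate block, sex-linked covariates and leaving out each library. Rerunning these for single partner and target genes was added after the data were seen. All 9 members were named, and of each list up to 6 called genes, or up to 2 with the smallest p. The 5 genes most like the member with the smallest adjusted p were named by Pearson correlation. A partner gene and a gene of that last set are not reported here. The test was checked on simulated data. Chi-square statistics between libraries of a group, over their degrees of freedom, were 3.73 to 6.01, above sampling noise. Each library was counted once, though these values do not show that the libraries came from separate embryos.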

Additional observations from a re-analysis of the deposited data

How the results depend on the processing

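Of 459 re-estimates of the members' log2 differences under other settings, 435 kept their direction and their side of the threshold, and 1 passed it: Mta2 for valproic acid against control by DESeq2, which called 1 member. No other setting called a member, and leaving out each library gave 0 in all 3 comparisons.

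The 23 estimates that changed sign were all near 0 and none was called. For valproic acid against control Gatad2a became 0.00 with no filter or with at least 1 CPM in 3 libraries, -0.06 with Y-linked expression, -0.02 with Xist, and ran from -0.06 to 0.06 over all settings (-0.03 and -0.01 without control replicate 1 or 2, -0.02 and -0.04 without valproic acid replicate 2 or 3). For poly(I:C) against control Ncor1 became -0.01 with Xist or without control replicate 1 or poly(I:C) replicate 3 (up to 0.03 without another library), Rcor1 0.00 without poly(I:C) replicate 1 (up to 0.08), and Mta2 -0.02 and -0.01 without control replicate 1 or poly(I:C) replicate 1. Mta3 became 0.00 with no filter or on leaving out control replicate 1, -0.01 on leaving out control replicate 2 and -0.07 for poly(I:C) replicate 2, and Rest 0.00 with Xist and 0.06, 0.02 and 0.01 without control replicate 1 or poly(I:C) replicates 2 or 3 (lowest -0.08). Sin3b for valproic acid against poly(I:C) became 0.00 without valproic acid replicate 2. The cause was not tested.

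Over all genes, valproic acid against control gave 1090 calls, and 1661 with no filter, 272 with Y-linked expression, 19 with Xist and 467 (without control replicate 1) to 1011 without 1 library. Poly(I:C) against control gave 92, and 464 with no filter, 166 by DESeq2, 42 with Xist and 38 (without control replicate 1) to 124 without 1 library. Valproic acid against poly(I:C) gave 445, and 1057 with no filter, 111 with Y-linked expression, 39 with Xist and 112 (without poly(I:C) replicate 2) to 439 without 1 library. The partner count for valproic acid against control was 4, and 1 with Y-linked expression, 0 with Xist and 2 (without control replicate 1) to 4 without 1 library; that of REST targets was 4, and 0 with either covariate and 0 to 3 without 1 library. Poly(I:C) against control called 1 partner with no filter. Valproic acid against poly(I:C) called 4 partners with no filter, 3 by DESeq2, 0 with the replicate block or either covariate and 0 to 2 without 1 library, and 2 REST targets with no filter and 1 by DESeq2.

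No pairing by replicate number was evident, though these values do not exclude it. Same-numbered libraries had correlations of their deviations of -0.04 to 0.13, and others of -0.09 to 0.05. The highest, 0.13, was that of control replicate 3 with poly(I:C) replicate 3. With the replicate number as a block the 3 comparisons gave 912, 88 and 340 calls over all genes, in the order above, and 0 members each. The number of libraries, 3 per group, sets the width of the intervals given.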
